A study of Mus musculus with 13 samples.

Results

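The DNA replication and nucleotide synthesis genes described here were 43 named members. They were picked by symbol or older alias from the probe-to-gene annotation of the array and not by a rule on their measured values. Earlier results of these data were known when the members were chosen. They were set against the 15107 genes that the array measured with at least 3 probe sets. Of the 43 members, 40 had such probe sets, 38 were bright enough to be tested, and Orc1 and Fen1 lay below the intensity filter. The levels of Rfc2, Lig1 and Rrm2 were not analysed here, though promoter windows of Lig1 and Rrm2 were counted with those of the members. The 40 measured members were covered by 707 probe sets, between 3 and 53 per gene with a median of 17.5.

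Bone marrow cells were sorted from mCG-PR mice, which express PML-RARA, the fusion protein of acute promyelocytic leukaemia, from the murine cathepsin G (Ctg) locus, and from wild-type (WT) littermates. RNA of 1 mouse per array was measured on 13 Affymetrix Mouse Exon 1.0 ST arrays, and all mice were of the Bl/6 Taconic strain, with the mutants labelled mCG-PR N17. The groups were mCG-PR SLAM cells of 7 weeks (n = 2), WT SLAM cells of 6 weeks (n = 2), mCG-PR KLS cells of 13 weeks (n = 2), mCG-PR KLS cells of 6 weeks (n = 3) and WT KLS cells of 12 to 13 weeks (n = 4, 2 mice of each age). KLS (Kit+, lineage-negative, Sca1+) cells hold stem cells and multipotent progenitors, and SLAM cells are enriched for long-term stem cells. The labels do not give sex, the copy number of the fusion or the sorting gates, and the Ctg promoter is best known from promyelocytes. SLAM and WT KLS mice differed in age as well as in population, so age and population cannot be told apart between them.

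DNA replication starts at origins that the origin recognition complex (ORC) marks and on which Cdc6 and Cdt1 load the MCM helicase. Cdc45, GINS and the kinase Cdc7 then turn the helicase on, and primase, DNA polymerases and the sliding clamp copy both strands. Most of these genes are transcribed as cells enter the cycle, while long-term stem cells in adult marrow are largely quiescent.

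Promoter windows are shown for Mcm6 and Cdc6, which were among the 3 most positive and the 3 most negative values in mCG-PR against WT KLS cells (Cdc6 only at -0.02) and had a window with an E2F motif, and for Hells, which was added after its values were seen. E2F factors are the classic regulators of replication genes. Each window holds 250 bases before a reference base and 50 from it on, on GRCm38.p6, 5′ to 3′ on the gene's strand. Capitals mark the E2F letters. The reference base is the RefSeq gene start for Mcm6. The whole windows of Cdc6 and Hells lie downstream of the RefSeq gene starts, which are at 98907709 and 38930262.
Mcm6, chr1:128359656-128359955, minus strand: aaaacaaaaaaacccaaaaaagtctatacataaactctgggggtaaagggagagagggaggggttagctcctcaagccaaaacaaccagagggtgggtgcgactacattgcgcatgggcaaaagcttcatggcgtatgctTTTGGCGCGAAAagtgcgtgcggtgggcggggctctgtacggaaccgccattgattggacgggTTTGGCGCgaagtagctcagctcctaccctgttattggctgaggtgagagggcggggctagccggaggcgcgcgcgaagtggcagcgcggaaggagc
Cdc6, chr11:98907901-98908200, plus strand: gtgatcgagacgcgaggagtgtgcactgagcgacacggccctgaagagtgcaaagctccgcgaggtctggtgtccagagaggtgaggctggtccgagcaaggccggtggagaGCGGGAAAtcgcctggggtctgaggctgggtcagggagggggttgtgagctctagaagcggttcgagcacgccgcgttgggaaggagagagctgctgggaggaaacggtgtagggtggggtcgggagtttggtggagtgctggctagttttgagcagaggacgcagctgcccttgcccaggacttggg
Hells, chr19:38930740-38931039, plus strand: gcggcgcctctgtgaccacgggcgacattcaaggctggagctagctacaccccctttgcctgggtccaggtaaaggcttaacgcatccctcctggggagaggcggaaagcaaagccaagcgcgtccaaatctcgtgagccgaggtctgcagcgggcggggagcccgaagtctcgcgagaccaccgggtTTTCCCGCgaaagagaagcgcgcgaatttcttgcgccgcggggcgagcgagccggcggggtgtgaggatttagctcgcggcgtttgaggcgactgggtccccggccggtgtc
The motif was searched as TTTCCCGC, TTTCGCGC, TTTGCCGC or TTTGGCGC on both strands. The Mcm6 window held 3 matches, of which the first 2, at -110 and -106 from the gene start on opposite strands, overlapped, and the last lay at -47. It also held 2 CCAAT boxes, read as ATTGG, at -57 and -14. Cdc6 had 1 match, GCGGGAAA, at -138, and Hells had 1, TTTCCCGC, at -62, both counted from the reference base of the window. Windows were given for 35 members, and 14 of their 43 windows (32.6%) held an E2F motif, against 744 of 32851 windows (2.26%) over all genes. CCAAT on either strand lay in 53.5% of the members' windows and in 37.4% of all windows. These matches describe the letters of the windows and do not show that a factor binds there.

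Before the results, some arrays need a description. The median within-group SD over all genes tested was 0.33 on the log2 scale in SLAM groups and 0.22 in KLS groups, and over the members it was 0.38 and 0.24. The sorted populations differed in Cd48, which lay between 4.24 and 5.56 on the SLAM arrays and between 8.28 and 9.61 on the KLS arrays. Slamf1 was 6.21 and 6.63 in mCG-PR SLAM cells, 7.68 and 7.47 in WT SLAM cells and between 5.17 and 6.31 in KLS cells. WT SLAM replicate 2 stood apart in Ngp and in the B cell markers. The granule gene Ngp was 12.05 on it and between 6.55 and 9.86 elsewhere. The mean of the B cell markers was 7.62 on it, against 6.37 to 7.03 elsewhere. The other myeloid markers measured, Itgam, Csf1r and Cd14, did not peak on this array. Itgam was above the other SLAM arrays but within the KLS values. Csf1r lay within the values of the other SLAM arrays. Cd14, which lay below the intensity filter, was the lowest of the SLAM arrays. The Y-linked genes had a mean of 4.28 and 4.23 in mCG-PR SLAM cells, and of 4.53 in the third mCG-PR KLS sample of 6 weeks, against 7.67 to 8.48 elsewhere. The part of these differences in the results below was not tested. P-values measure the spread between individual mice.

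**Figure D1:**
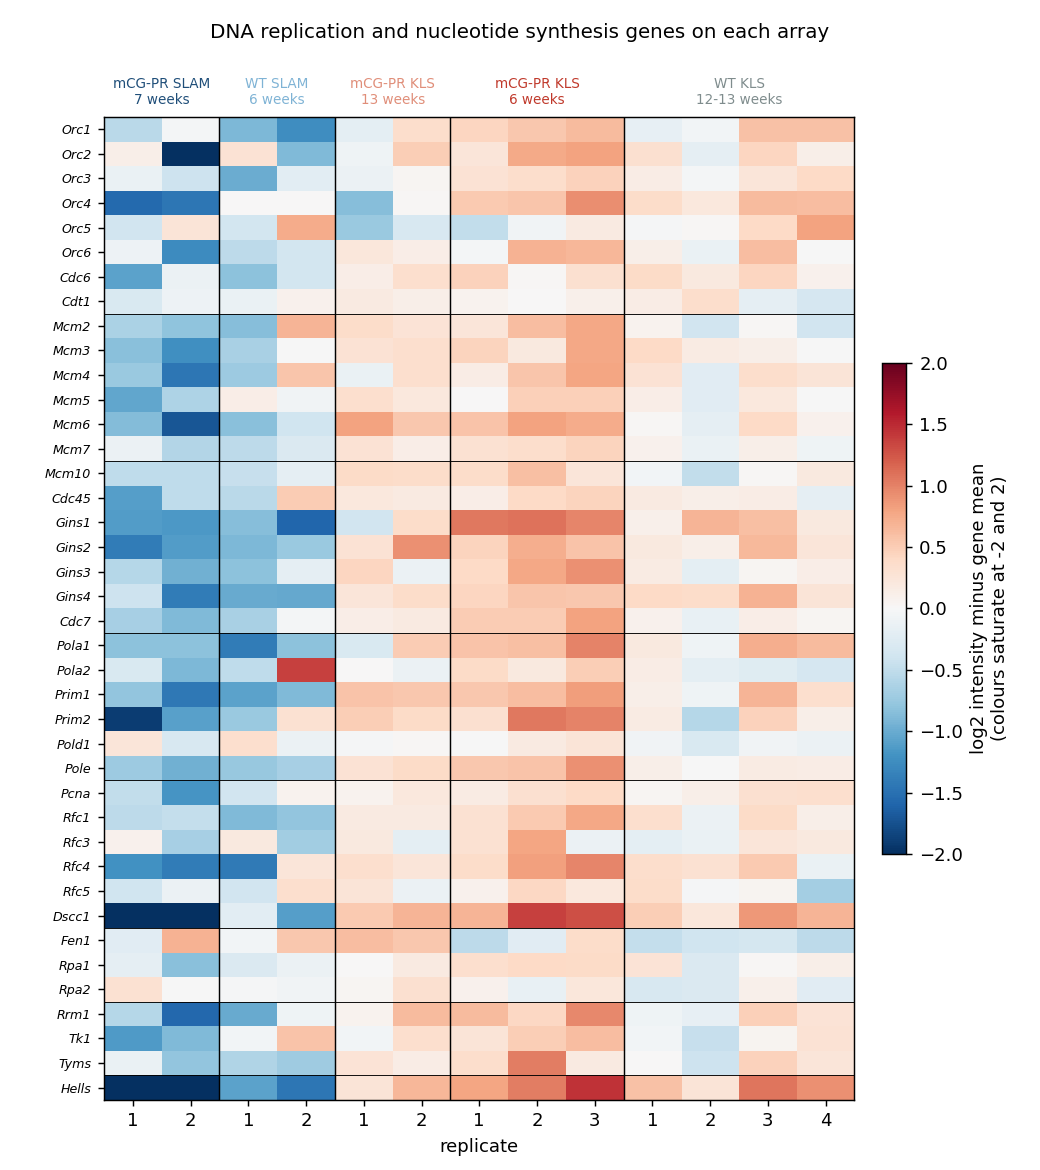
Log2 intensity of the 40 measured members (rows, grouped by role) on the 13 arrays (columns, grouped by genotype, population and age), as the difference from the mean of each gene over all arrays. Most rows are blue on the mCG-PR SLAM arrays and red on the mCG-PR KLS arrays of 6 weeks, and WT SLAM replicate 2 departs from replicate 1 in Pola2, Mcm2 and Mcm4.

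The clearest difference among these genes lay between the 2 sorted populations of mCG-PR mice. In mCG-PR SLAM cells of 7 weeks, against mCG-PR KLS cells of 6 weeks, 25 of the 38 tested members fell at an adjusted p under 0.05 (limma, Benjamini-Hochberg over 10575 genes) and 0 rose. Over all genes tested, 12.3% were called lower and 0.813% higher. At an unadjusted p under 0.05, 32 members were lower and 0 higher (23.6% and 3.11% of all genes), and 34 were lower on both SLAM arrays than on all 3 KLS arrays (35.1% of all genes). The median log2 change of the members was -1.32, against -0.19 for all genes tested, and 2 members were positive, as were 36.7% of all genes. In WT mice, SLAM against KLS cells, 4 members fell (Hells, Gins4, Gins1 and Prim1) and 0 rose, where 2.77% of all genes were called lower and 0.35% higher. At an unadjusted p under 0.05, 13 members were lower and 0 higher (13.9% and 3.91% of all genes), and 17 were lower on both SLAM arrays than on all 4 KLS arrays (22.3% of all genes). The WT median was -0.46, against -0.05 for all genes, and 7 members were positive, as were 45.1% of all genes. Of the 25 calls in mCG-PR mice, 4 (Gins1, Rfc4, Dscc1 and Hells) had both SLAM values below the filter level, as had 1 of the 4 in WT mice (Gins1). These members passed the filter, which was set on the mean over all arrays, mainly through the KLS arrays. The sizes of their changes are therefore uncertain. RNA of sorted bulk cells was measured, so fewer cells in cycle and less of each RNA per cell cannot be told apart.

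The count in mCG-PR mice rested on few SLAM arrays. It was 15 without mCG-PR SLAM replicate 1, 8 without mCG-PR SLAM replicate 2, and 13 after quantile normalization. Without the mCG-PR KLS array of low Y-linked values it was 21. Both mCG-PR SLAM arrays had low Y-linked values too, so leaving that array out does not separate this difference from population. The share of all genes called is given above for the main fit only, so these counts were not set against all genes. Orc4, Mcm6, Gins1, Gins2, Pole, Dscc1 and Hells were called lower under all 13 alternatives run for this comparison, with a highest adjusted p of 0.0465. The WT count was 0 without either WT SLAM array. Across genotypes, 13 of 38 members were lower on all 4 SLAM arrays than on all 9 KLS arrays, and 0 were higher, against 9.53% and 1.57% of all genes. Those 13 were Orc3, Cdc6, Mcm3, Mcm6, Gins1, Gins2, Gins4, Pola1, Prim1, Pole, Rfc1, Dscc1 and Hells. Among them Gins1, Dscc1 and Hells, also called under all 13 alternatives, had both mCG-PR SLAM values below the filter level. The lowest KLS value minus the highest SLAM value was only 0.0007 for Mcm3 and 0.02 for Orc3, against 1.33 for Hells. Mcm7, at -0.002, narrowly missed the list.

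**Figure D2:**
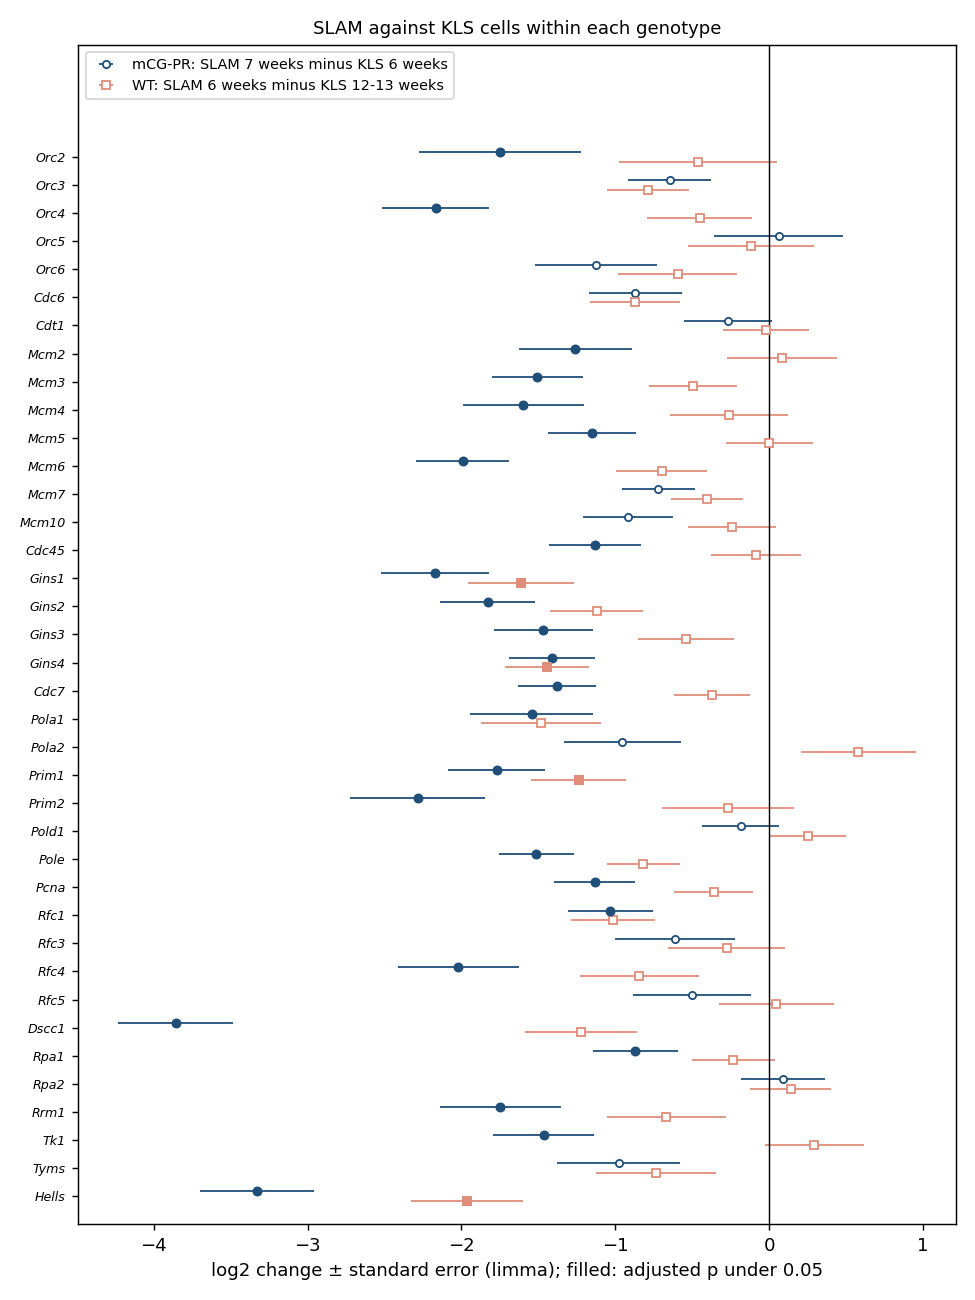
Log2 change ± SE (limma) of each tested member in SLAM against KLS cells, for mCG-PR mice (dark blue circles) and WT mice (pink squares), with filled symbols for an adjusted p under 0.05. The mCG-PR points lie between -3.86 (Dscc1) and 0.09 (Rpa2), and the WT points between -1.96 (Hells) and 0.58 (Pola2).

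Among the genes of origin recognition and licensing, Orc2 and Orc4 fell in mCG-PR SLAM cells, and Orc3, Orc5, Orc6, Cdc6 and Cdt1 did not pass. Orc4, an ATPase subunit of ORC, was at log2 6.33 and 6.43 on the mCG-PR SLAM arrays, against 8.40, 8.43 and 8.82 on the mCG-PR KLS arrays of 6 weeks. It thus fell by 2.17 ± 0.35 (SE, adjusted p = 0.00166), or 4.49-fold, with no overlap. On the WT SLAM arrays Orc4 was 7.88 and 7.89, against 8.25, 8.09, 8.51 and 8.51 on the WT KLS arrays, a log2 change of -0.45 ± 0.34 (adjusted p = 0.548). Orc2 was 7.44 on one mCG-PR SLAM array and 4.89 on the other, against 7.55, 8.08 and 8.11 on the mCG-PR KLS arrays of 6 weeks. Its call, at -1.75 ± 0.52 (adjusted p = 0.0392), rested on the lower array and was -0.48 (adjusted p = 0.722) without it. The licensing factor Cdc6, whose window is printed above, had -0.87 ± 0.30 in mCG-PR mice (adjusted p = 0.0714) and -0.87 ± 0.29 in WT mice (adjusted p = 0.125), and passed in neither. Cdt1 had -0.27 ± 0.29 and -0.02 ± 0.28.

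The 6 MCM subunits form the ring helicase that unwinds the origin. In mCG-PR SLAM cells Mcm2, Mcm3, Mcm4, Mcm5 and Mcm6 fell, and Mcm7 had -0.72 ± 0.24 (adjusted p = 0.0606). Their log2 changes ranged from -1.99 to -0.72. The Mcm2 call was kept under only 7 of 13 alternatives. Mcm6 was 8.58 and 7.73 on the mCG-PR SLAM arrays, against 10.01, 10.25 and 10.18 on the mCG-PR KLS arrays of 6 weeks. It fell by 1.99 ± 0.30 (adjusted p = 0.0012), and all 20 of its probe sets had a lower mean there. In WT mice the 6 changes ranged from -0.70 (Mcm6) to 0.08 (Mcm2) and 0 passed. WT SLAM replicate 2 was the highest SLAM array for Mcm2, Mcm3, Mcm4 and Mcm6, but not for Mcm5 and Mcm7. Mcm2 was 7.96 on it, against 6.42 on WT SLAM replicate 1. Without WT SLAM replicate 2 the WT change of Mcm2 was -0.69.

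Of the genes that activate the helicase, Cdc45, Gins1, Gins2, Gins3, Gins4 and Cdc7 fell in mCG-PR SLAM cells, and Mcm10 had -0.91 ± 0.29 (adjusted p = 0.0517). GINS is the 4-subunit complex that joins MCM and Cdc45 in the active helicase. Gins1 was 5.52 and 5.48 on the mCG-PR SLAM arrays, against 7.69, 7.72 and 7.61 on the mCG-PR KLS arrays of 6 weeks. In WT mice it was 5.79 and 5.05 on the SLAM arrays, against 6.73, 7.32, 7.24 and 6.83 on the WT KLS arrays. Gins1 thus fell in both genotypes, by 2.17 ± 0.35 in mCG-PR mice (adjusted p = 0.00171) and by 1.61 ± 0.34 in WT mice (adjusted p = 0.0228), with no overlap in either. All 4 SLAM values lay below the filter level of log2 6.00, against which the KLS mean was 3.20-fold higher in mCG-PR mice and 2.05-fold higher in WT mice. Gins4 was 8.53 and 7.55 on the mCG-PR SLAM arrays, against 9.38, 9.49 and 9.48 on the mCG-PR KLS arrays of 6 weeks. WT values of Gins4 were 7.94 and 7.92 on the SLAM arrays, against 9.34, 9.31, 9.65 and 9.21 on the WT KLS arrays. It fell by 1.41 ± 0.28 in mCG-PR mice (adjusted p = 0.00505) and by 1.44 ± 0.27 in WT mice (adjusted p = 0.0123). Gins2 was 6.51 and 6.79 on the mCG-PR SLAM arrays, against 8.34, 8.62 and 8.47 on the mCG-PR KLS arrays of 6 weeks, and fell by 1.83 ± 0.31 (adjusted p = 0.00214). In WT mice Gins2 had -1.12 ± 0.30 (adjusted p = 0.0564).

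Primase makes the RNA primers that polymerase alpha extends, and polymerases delta and epsilon copy the bulk of the DNA. Pola1, Prim1, Prim2 and Pole fell in mCG-PR SLAM cells, while Pola2 and Pold1 did not pass. Prim1, the catalytic primase subunit, was 7.81 and 7.17 on the mCG-PR SLAM arrays, against 9.13, 9.22 and 9.43 on the mCG-PR KLS arrays of 6 weeks. Its values in WT mice were 7.53 and 7.71 on the SLAM arrays, against 8.71, 8.51, 9.28 and 8.94 on the WT KLS arrays. Prim1 fell by 1.77 ± 0.32 in mCG-PR mice (adjusted p = 0.00294) and by 1.24 ± 0.31 in WT mice (adjusted p = 0.0409), and SLAM and KLS values overlapped in neither. Pole, the catalytic subunit of polymerase epsilon, was 6.28 and 6.05 on the mCG-PR SLAM arrays, against 7.54, 7.57 and 7.92 on the mCG-PR KLS arrays of 6 weeks. It fell by 1.51 ± 0.24 (adjusted p = 0.00157). Pola1, the catalytic subunit of polymerase alpha, was 7.32 on both mCG-PR SLAM arrays, against 8.72, 8.75 and 9.13 on the mCG-PR KLS arrays of 6 weeks. Pola1 in WT mice was 6.75 and 7.31 on the SLAM arrays, against 8.34, 8.06, 8.87 and 8.77 on the WT KLS arrays. It fell by 1.54 ± 0.40 in mCG-PR mice (adjusted p = 0.0204) and had -1.48 ± 0.39 in WT mice (adjusted p = 0.0526). Pola2, the accessory subunit of the same polymerase, had the largest positive value among members in WT mice, 0.58 ± 0.37 (adjusted p = 0.461). It was 6.48 and 8.37 on the WT SLAM arrays, against 7.15, 6.81, 6.76 and 6.66 on the WT KLS arrays, and without the second WT SLAM array the change was -0.36. Pold1, the catalytic subunit of polymerase delta, was 7.58 and 7.14 on the WT SLAM arrays, against 7.18, 6.95, 7.18 and 7.14 on the WT KLS arrays, so the groups overlapped.

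The sliding clamp Pcna holds polymerases on DNA and is loaded by the Rfc complex. Pcna was 11.23 and 10.54 on the mCG-PR SLAM arrays, against 11.89, 12.05 and 12.12 on the mCG-PR KLS arrays of 6 weeks, and fell by 1.13 ± 0.26 (adjusted p = 0.012). The WT SLAM arrays gave Pcna values of 11.34 and 11.79, against 11.77, 11.84, 12.04 and 12.06 on the WT KLS arrays, a change of -0.36 ± 0.26 with overlapping values. RefSeq lists the pseudogenes Pcna-ps1 and Pcna-ps2, so probes could be shared with copies of this gene. Rfc1 and Rfc4 fell as well, with both mCG-PR SLAM values of Rfc4 below the filter level, and Rfc3 and Rfc5 did not pass. The Rfc1 call was kept under only 7 of 13 alternatives.

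Dscc1, a subunit of the alternative clamp loader that acts in sister chromatid cohesion, had the most negative fitted change of all members. It was 4.88 and 4.10 on the mCG-PR SLAM arrays, against 7.91, 8.61 and 8.53 on the mCG-PR KLS arrays of 6 weeks, and fell by 3.86 ± 0.37 (adjusted p = 8.1e-05). All 10 of its probe sets were lower. Its mCG-PR SLAM values lay below the filter of log2 6.00 that was set on the mean over all arrays, which it passed through the KLS arrays, so the size of the change is uncertain. Against the filter level the KLS mean was 5.10-fold higher. On the WT SLAM arrays Dscc1 was 7.03 and 6.13, against 7.73, 7.46, 8.11 and 7.92 on the WT KLS arrays, a change of -1.22 ± 0.37 (adjusted p = 0.0835) with no overlap.

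Of the single-strand binding proteins, Rpa1 fell by 0.87 ± 0.28 (adjusted p = 0.0498) and Rpa2 had 0.09 ± 0.27. The Rpa1 call was kept under only 2 of 13 alternatives. Rrm1, the large subunit of ribonucleotide reductase, which makes deoxynucleotides, fell by 1.75 ± 0.39 (adjusted p = 0.01) in mCG-PR SLAM cells. The salvage enzyme Tk1 fell by 1.46 ± 0.33 (adjusted p = 0.00979), with 6.54 and 6.78 on the mCG-PR SLAM arrays against 7.94, 8.16 and 8.29 on the mCG-PR KLS arrays of 6 weeks. In WT mice Tk1 was 7.61 and 8.24 on the SLAM arrays, against 7.62, 7.22, 7.73 and 7.97 on the KLS arrays, so the groups overlapped. Thymidylate synthase (Tyms) was 8.34 and 7.69 on the mCG-PR SLAM arrays, against 8.82, 9.50 and 8.65 on the mCG-PR KLS arrays of 6 weeks. Its groups did not overlap, but its change of -0.98 ± 0.40 did not pass (adjusted p = 0.123). RefSeq lists a pseudogene, Tyms-ps.

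Hells, a chromatin remodeller of the SNF2 family that is needed for DNA methylation in dividing cells, fell in both genotypes. It was 5.88 and 5.54 on the mCG-PR SLAM arrays, against 8.74, 8.98 and 9.40 on the mCG-PR KLS arrays of 6 weeks, and fell by 3.33 ± 0.37 (adjusted p = 2.23e-04). These SLAM values also lay below the filter level, against which the KLS mean was 8.24-fold higher. On the WT SLAM arrays it was 6.88 and 6.51, against 8.53, 8.21, 9.02 and 8.87 on the WT KLS arrays, and fell by 1.96 ± 0.36 (adjusted p = 0.0106). The gap between the highest SLAM array and the lowest KLS array was 1.33, and all 22 of its probe sets were lower in mCG-PR SLAM cells.

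**Figure D3:**
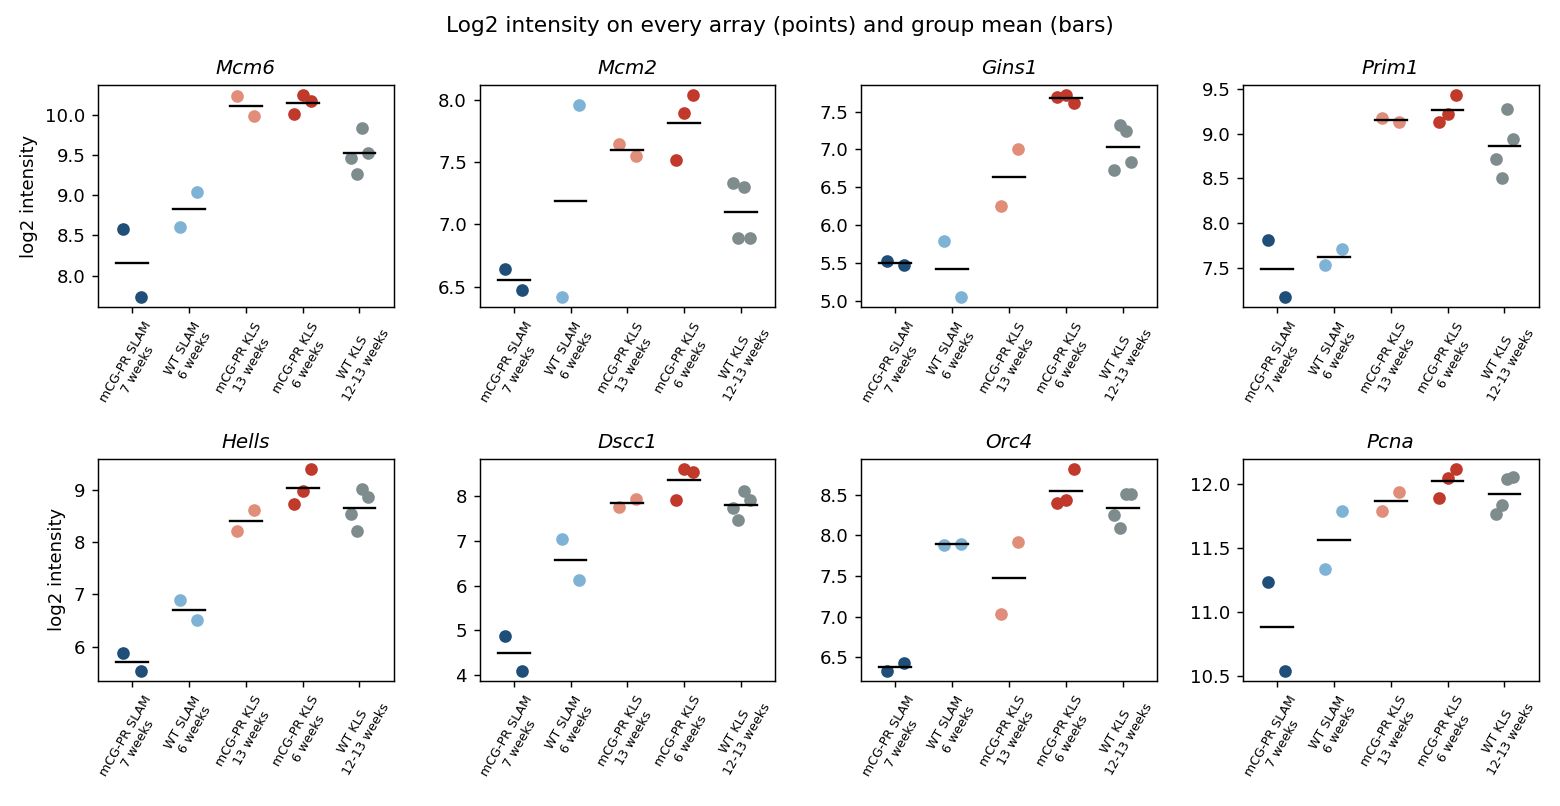
Log2 intensity of 8 members on each array (points), with the mean of each group (bars), in the order mCG-PR SLAM, WT SLAM, mCG-PR KLS of 13 weeks, mCG-PR KLS of 6 weeks and WT KLS. Dscc1 lies at 4.88 and 4.10 in mCG-PR SLAM cells and at 7.46 or above in KLS cells, and Mcm2 on WT SLAM replicate 2 (7.96) lies far above replicate 1 (6.42).

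Lists of other genes of the same processes were read beside the members. Of 31 other replication genes tested, 20 fell and 0 rose in mCG-PR SLAM against mCG-PR KLS cells of 6 weeks, with a median of -1.13. Over all genes tested, 12.3% were called lower and 0.813% higher, and the median was -0.19. Among those that fell were the licensing inhibitor Gmnn (-2.63 ± 0.47, adjusted p = 0.00303), the fork protein Wdhd1 (-2.56 ± 0.40, adjusted p = 0.00147) and the fork protection factor Tipin (-2.54 ± 0.37, adjusted p = 0.00106). The lower mCG-PR SLAM value of Gmnn, 5.62, lay below the filter level. Of 31 other nucleotide synthesis genes 8 fell and 0 rose, with a median of -0.77, led by Nme2 (-1.84 ± 0.45, adjusted p = 0.0159) and Cmpk1 (-1.60 ± 0.33, adjusted p = 0.00608). In WT mice 3 of the other replication genes fell, among them Wdhd1 (-1.82 ± 0.39, adjusted p = 0.0232) and the polymerase delta subunit Pold3 (-1.22 ± 0.29, adjusted p = 0.0363), and 0 of the nucleotide genes. Of all genes, 2.77% were called lower and 0.35% higher in WT mice.

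Whether the fusion went with other levels of these genes was compared within KLS cells. In mCG-PR KLS cells of both ages against WT KLS cells, 0 of 38 members passed in either direction, where 0.0567% of all genes were called higher and 0.0284% lower. Without adjustment, 12 members were higher and 1 lower at p under 0.05, against 9.73% and 2.37% of all genes. The members' median log2 change was 0.25 and 34 of 38 were positive, while the median over all genes was 0.09 and 68% of them were positive. Of the members, 7 (Mcm2, Mcm6, Mcm7, Mcm10, Cdc7, Pold1 and Pole) were higher on all 5 mCG-PR KLS arrays than on all 4 WT KLS arrays, against 3.55% of all genes, and 0 were lower on all of them, against 0.652%. The margin was narrow for Mcm7 and Cdc7, with lowest mCG-PR values of 8.1321 and 6.9035 against highest WT values of 8.1289 and 6.9009.

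Mcm6 had the smallest p, at 10.24 and 9.99 on the mCG-PR KLS arrays of 13 weeks and 10.01, 10.25 and 10.18 on those of 6 weeks, against 9.47, 9.26, 9.84 and 9.52 on the WT KLS arrays. The groups did not overlap, and the change was 0.61 ± 0.14 (adjusted p = 0.12). Mcm2 was 7.64 and 7.55 on the mCG-PR KLS arrays of 13 weeks and 7.51, 7.90 and 8.04 on those of 6 weeks, against 7.34, 6.89, 7.30 and 6.89 on the WT KLS arrays, a change of 0.63 ± 0.16 (adjusted p = 0.155). Prim2, the regulatory primase subunit, was 7.67 and 7.57 on the mCG-PR KLS arrays of 13 weeks and 7.51, 8.25 and 8.18 on those of 6 weeks, against 7.35, 6.62, 7.64 and 7.30 on the WT KLS arrays. Its groups overlapped through WT KLS replicate 3, and its change was 0.60 ± 0.21 (adjusted p = 0.278).

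The 4 members with negative values were Orc5, Orc4, Cdc6 and Gins4. Orc5, another ORC ATPase, was 5.82 and 6.25 on the mCG-PR KLS arrays of 13 weeks and 6.08, 6.50 and 6.75 on those of 6 weeks, against 6.54, 6.59, 6.96 and 7.38 on the WT KLS arrays. It had the most negative value, -0.59 ± 0.20 (adjusted p = 0.275), with 1 mCG-PR array inside the WT range. Orc4 had -0.22 ± 0.27, with 7.03 and 7.91 on the mCG-PR KLS arrays of 13 weeks, 8.40, 8.43 and 8.82 on those of 6 weeks, and 8.25, 8.09, 8.51 and 8.51 on the WT KLS arrays. Both arrays of 13 weeks lay below every WT array, and the arrays of 6 weeks lay within or above the WT values. Cdc6 had -0.02 ± 0.14, with 6.66 and 6.86 on the mCG-PR KLS arrays of 13 weeks, 6.99, 6.55 and 6.86 on those of 6 weeks, and 6.92, 6.73, 6.96 and 6.62 on the WT KLS arrays, fully overlapping.

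By role, the median log2 change in KLS cells of both ages was 0.29 for the MCM helicase, 0.29 for helicase activation, 0.35 for polymerases and primase, 0.23 for the clamp and its loaders, 0.37 for the 3 nucleotide synthesis genes and 0.01 for origin recognition and licensing. Pcna was 11.79 and 11.94 on the mCG-PR KLS arrays of 13 weeks and 11.89, 12.05 and 12.12 on those of 6 weeks, against 11.77, 11.84, 12.04 and 12.06 on the WT KLS arrays. Its change was 0.03 ± 0.13, and its direction turned to -0.05 when array medians were subtracted. Tyms had 0.32 ± 0.20, with 8.75 and 8.62 on the mCG-PR KLS arrays of 13 weeks, 8.82, 9.50 and 8.65 on those of 6 weeks and 8.48, 8.06, 8.94 and 8.72 on the WT KLS arrays. The other lists also gave 0 calls here, with medians of 0.21 for replication and 0.18 for nucleotide synthesis. Their largest values were 0.98 ± 0.25 for the initiation factor Ticrr (adjusted p = 0.155) and 0.49 ± 0.15 for the salvage kinase Uck2 (adjusted p = 0.215).

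Each age was also set against the same 4 WT KLS arrays, so these comparisons share their controls. The mCG-PR mice of 6 weeks were younger than the WT mice, so genotype and age cannot be told apart there. At 13 weeks 0 members passed, where 0.00946% of all genes were called higher and 0% lower. The median was 0.12 (0.05 for all genes), and 27 members were positive (57.7% of all genes). Orc4 had -0.87 ± 0.23 (adjusted p = 0.181) and Orc5 -0.83 ± 0.25 (adjusted p = 0.204), the 2 members lower on both arrays than on every WT KLS array, and 7 were higher on both (10.2% and 14.8% of all genes). At 6 weeks 0 members passed, where 0.0378% of all genes were called higher and 0% lower. The median was 0.35 (0.11 for all genes), 36 members were positive (71.7% of all genes), and 11 were higher and 0 lower on all 3 arrays than on every WT KLS array (9.46% and 1.54% of all genes). The largest value was 0.75 ± 0.23 for Prim2 (adjusted p = 0.237), and Cdc7, the kinase that fires origins, had 0.58 ± 0.14 (adjusted p = 0.167). Unadjusted p was under 0.05 for 3 members higher and 2 lower at 13 weeks (7.59% and 5.92% of all genes), and for 17 higher and 0 lower at 6 weeks (10.9% and 1.68%).

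Between the ages of mCG-PR mice, 13 against 6 weeks, 0 members passed, where 0% of all genes were called higher and 0.00946% lower. At an unadjusted p under 0.05, 9 were lower and 0 higher (9.37% and 2.76% of all genes). The median was -0.31 (-0.07 for all genes) and 3 of 38 were positive (39.8% of all genes). Of the members, 13 were lower and 1 higher on both arrays of 13 weeks than on all 3 of 6 weeks (20.1% and 10.7% of all genes). Orc4 had -1.08 ± 0.24 and Gins1 -1.04 ± 0.24 (adjusted p = 0.197 each). Gins1 was 6.25 and 7.01 on the mCG-PR KLS arrays of 13 weeks, against 7.69, 7.72 and 7.61 on those of 6 weeks, with no overlap. After quantile normalization the members' median was -0.10.

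**Figure D4:**
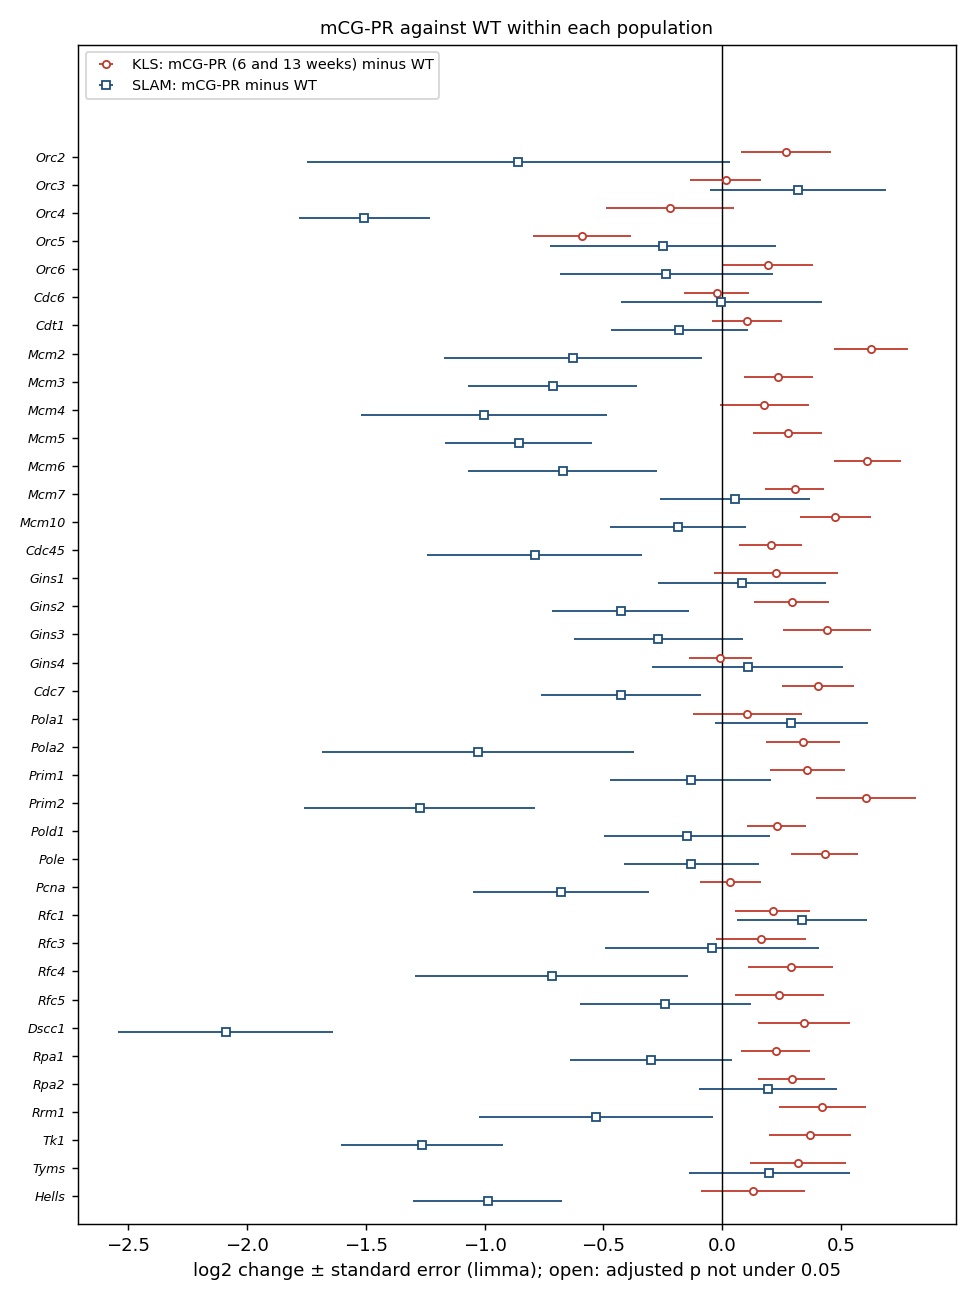
Log2 change ± SE (limma) of each tested member in mCG-PR against WT mice, in KLS cells of both ages (red circles) and in SLAM cells (blue squares), with open symbols because 0 members passed in either. The KLS points lie between -0.59 (Orc5) and 0.63 (Mcm2), and the SLAM points, with wider errors, between -2.09 (Dscc1) and 0.34 (Rfc1).

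In SLAM cells, mCG-PR against WT, 0 of 38 members passed, as did 0% of all genes in either direction. Unadjusted p was under 0.05 for 6 members lower and 0 higher (4.07% and 2.18% of all genes). The median was -0.28 (-0.02 for all genes), and 8 members were positive (47.7% of all genes). In a simulation with the spread of the SLAM arrays, limma recovered 5% of changes of 1 and 82% of changes of 2 on the log2 scale, so changes of 1 were rarely detected.

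Dscc1 was 4.88 and 4.10 on the mCG-PR SLAM arrays, against 7.03 and 6.13 on the WT SLAM arrays, a change of -2.09 ± 0.45 (adjusted p = 0.753). Orc4 was 6.33 and 6.43 on the mCG-PR SLAM arrays, against 7.88 and 7.89 on the WT SLAM arrays, a change of -1.51 ± 0.28 (adjusted p = 0.727). Prim2 was 5.29 and 6.09 on the mCG-PR SLAM arrays, against 6.44 and 7.49 on the WT SLAM arrays, a change of -1.27 ± 0.49 (adjusted p = 0.788). None of these 3 overlapped between genotypes. Tk1 (-1.26 ± 0.34), Hells (-0.99 ± 0.31) and Mcm5 (-0.86 ± 0.31) were the other 3 members with an unadjusted p under 0.05. The mCG-PR SLAM values of Dscc1 and Hells, and the lower one of Prim2, lay below the filter level of log2 6.00. The sizes of the changes of Dscc1, Hells and Prim2 are therefore uncertain. In all, 13 members were lower on both mCG-PR SLAM arrays and 3 higher, against 18.8% and 16.4% of all genes.

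The largest positive values were small. Rfc1, the large clamp loader subunit, was 7.68 and 7.72 on the mCG-PR SLAM arrays, against 7.33 and 7.41 on the WT SLAM arrays (0.34 ± 0.27). Orc3 was 8.43 and 8.16 on the mCG-PR SLAM arrays, against 7.59 and 8.36 on the WT SLAM arrays (0.32 ± 0.37). Pola1 was 7.32 on both mCG-PR SLAM arrays, against 6.75 and 7.31 on the WT SLAM arrays (0.29 ± 0.32). The SLAM median depended on which WT array was kept: it was -0.10 without WT SLAM replicate 2, the array with high Ngp and B cell markers, and -0.55 without WT SLAM replicate 1. Pcna had -0.68 ± 0.37 and Tyms 0.20 ± 0.34 in this comparison.

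Whether the genotype difference itself differed between SLAM and KLS cells was tested as an interaction over all 13 arrays, with both ages of mCG-PR KLS as 1 group. For 0 of 38 members did it pass, as for 0% of all genes in either direction, while the unadjusted p was under 0.05 for 10 members in the negative direction and 0 in the positive (5.85% and 1.97% of all genes). The median of the members was -0.68 (-0.11 for all genes), and 6 were positive (39.1% of all genes). Dscc1 had -2.43 ± 0.55 (adjusted p = 0.257), Prim2 -1.88 ± 0.60 (adjusted p = 0.38), Tk1 -1.63 ± 0.46 (adjusted p = 0.297) and Mcm6 -1.28 ± 0.40 (adjusted p = 0.372). For Dscc1 and Prim2, mCG-PR SLAM values below the filter level enter the estimate, so its size is uncertain. The larger number of members called in mCG-PR than in WT mice between the populations is therefore not shown to be a difference between the genotypes. The groups also differed in age, so genotype and age cannot be fully told apart in the interaction.

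**Figure D5:**
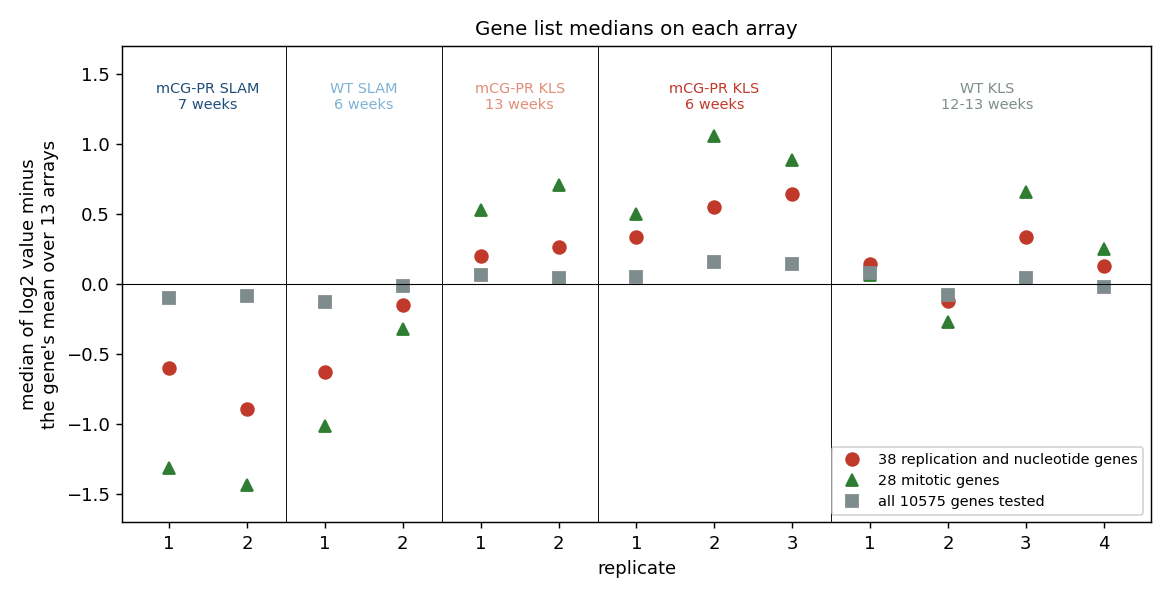
Median over genes of the log2 value minus the mean of each gene over the 13 arrays, for the 38 tested members (red circles), 28 mitotic genes (green triangles) and all 10575 genes tested (grey squares), on each array. The members lie at -0.60 and -0.89 on the mCG-PR SLAM arrays, at -0.63 and -0.15 on the WT SLAM arrays, at 0.20 and 0.26 on the mCG-PR KLS arrays of 13 weeks, between 0.34 and 0.64 on those of 6 weeks, and between -0.12 and 0.33 on the WT KLS arrays.

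Read array by array, the members' median was below 0 on all 4 SLAM arrays and above 0 on all 5 mCG-PR KLS arrays. WT KLS replicate 3, at 0.33, lay above both mCG-PR KLS arrays of 13 weeks, and WT KLS replicate 2, at -0.12, was the lowest KLS array. The median of 28 mitotic genes moved with it, with -1.32 and -1.44 in mCG-PR SLAM cells against 0.50, 1.05 and 0.88 in mCG-PR KLS cells of 6 weeks, and its part in the members' values was not tested. The medians of all genes stayed between -0.13 and 0.15.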

How the data were processed

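RNA from sorted cells of 13 mice was hybridised to Affymetrix Mouse Exon 1.0 ST arrays, 1 mouse per array. The deposited table holds 1 intensity value per probe set on a linear scale, from 2.34 to 21748.2, made with RMA and the mm9 build per the submitters' processing notes. No source used here gives the version or settings of RMA. Array medians were 98.6 to 115.3. Precision is limited by how few arrays each group has.

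Of 229581 probe sets, 208397 were listed with 1 gene and used. A gene's value was the median log2 intensity of its probe sets (at least 3). Genes above the 30th percentile of mean value (log2 6.00) were tested, 10575 in all. The test was limma 3.58.1 under R 4.3.3, two-sided, with Benjamini-Hochberg adjustment and a threshold of 0.05. Comparisons within KLS used the 9 KLS arrays, those within SLAM the 4 SLAM arrays, and those between populations all 13, weighted by population because the spread was larger in SLAM groups. Values after ± are standard errors, and levels of different genes were not compared.

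The members and lists were chosen with earlier results of these data known. Per-array values were given for members passing (up to 8 per comparison by smallest p), for the 3 largest changes in each direction in both genotype comparisons and in WT SLAM against KLS, and for Pcna and Tyms, with Mcm2 to Mcm7 by range. Of the other lists up to 4 genes by largest change were eligible. Promoter windows came from RefSeq. Tested on simulated data with 10575 genes, the fits recovered 30% of changes of 1 and 100% of changes of 2 on the log2 scale for mCG-PR SLAM against KLS (16 false of 146 calls), 33% and 100% for WT (22 of 155), and 99% and 100% for KLS of both ages (12 of 211). Alternatives were other filters, the mean of probe sets, quantile normalization, subtraction of array medians, 1 pooled spread, the replicate number as a block, other WT ages, and leaving out each array. Using both ages of mCG-PR KLS as 1 group was added after seeing the data.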

Additional observations from a re-analysis of the deposited data

Results flagged for a closer look

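In groups of 4 or 5 arrays, the highest or lowest value was compared with the rest by Dixon's test at the 95% level. Over 82 such tests 3 values stood apart, and chance gives about 1 in 20. Mcm4 on WT KLS replicate 2 was 7.76 on the log2 scale, against 8.24 to 8.34 on the other WT KLS arrays. Pold1 on the same array was 6.95, against 7.14 to 7.18. Tyms on mCG-PR KLS replicate 2 of 6 weeks was 9.50, against 8.62 to 8.82 on the other mCG-PR KLS arrays of both ages.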

How the results depend on the processing

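For SLAM against KLS in mCG-PR mice the count of members called (25) was 13 and the median -1.0 after quantile normalization, and 22 with both ages of mCG-PR KLS as 1 group. For WT SLAM against KLS the count (4) was 8 and the median -0.66 with the mean of probe sets, 2 after quantile normalization, 11 with 1 pooled spread and 2 with WT KLS of 13 weeks only. With 1 pooled spread, mCG-PR against WT SLAM had 3 calls and the interaction 2. The counts under the alternatives were not set against the share of all genes called under them. The median for 13 against 6 weeks was -0.10 after quantile normalization. Leaving out 1 array gave counts of 8 to 25 for mCG-PR SLAM against KLS, 0 to 6 for WT SLAM against KLS (6 without WT KLS replicate 2), 0 to 1 for KLS of both ages (1 without WT KLS replicate 3) and 0 in each of the other comparisons. The medians then ranged from -1.48 to -1.22, -0.68 to -0.21 and 0.20 to 0.33 in the same order, 0.04 to 0.15 for KLS of 13 weeks, 0.27 to 0.47 for KLS of 6 weeks, -0.38 to -0.21 between the ages, -0.55 to -0.10 in SLAM cells and -0.83 to -0.46 for the interaction. Some small values turned. Pcna in KLS cells of both ages became -0.048 with array medians subtracted and -0.089 with WT KLS of 12 weeks only, at 6 weeks -0.027 with WT KLS of 12 weeks only, and at 13 weeks 0.061 with the mean of probe sets, 0.047 with the replicate block and 0.062 with WT KLS of 13 weeks only. Tyms became -0.15 at 13 weeks with WT KLS of 12 weeks only, -0.25 in SLAM cells with the mean of probe sets and 0.036 in the interaction after quantile normalization. Mcm2 between WT populations became -0.10 with the mean of probe sets. With 1 array left out, the values in KLS cells of both ages ranged from -0.39 to 0.051 for Orc4, -0.085 to 0.035 for Cdc6 and -0.018 to 0.077 for Pcna, and at 13 weeks from -0.13 to 0.011 for Pcna and -0.030 to 0.26 for Tyms. Those between SLAM genotypes ranged from -0.069 to 0.71 for Orc3 and -0.13 to 0.53 for Tyms, those between WT populations from -0.025 to 0.61 for Tk1, -0.36 to 1.52 for Pola2 and -0.69 to 0.85 for Mcm2, and the interaction of Tyms from -0.45 to 0.21. The cause was not tested. The replicate numbers share only a number: deviations of same-numbered arrays correlated between -0.07 and 0.08. With the replicate block the counts were 21 in mCG-PR and 3 in WT SLAM against KLS, and 0 in the other 6 comparisons.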

Other observations

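Mitotic genes, which act after replication, were read as a separate list of 30, of which 28 were tested. In mCG-PR SLAM against mCG-PR KLS cells of 6 weeks 23 of 28 fell and 0 rose (12.3% and 0.813% of all genes), with a median log2 change of -2.21 (-0.19 for all genes). Among those that fell were the kinetochore motor Cenpe (-3.65 ± 0.47, adjusted p = 5.12e-04), the topoisomerase Top2a (-3.44 ± 0.47, adjusted p = 6.79e-04) and the proliferation marker Mki67 (-3.32 ± 0.48, adjusted p = 0.00104). In WT SLAM against WT KLS cells 0 passed in limma, with 16 lower at an unadjusted p under 0.05 (13.9% of all genes) and a median of -1.01 (-0.05 for all genes). In mCG-PR against WT KLS cells of both ages 0 passed, while 28 of 28 were positive (68% of all genes) with a median of 0.61 (0.09 for all genes), and 25 were higher at an unadjusted p under 0.05 (9.73% of all genes). The spindle checkpoint kinase Bub1b had 0.85 ± 0.19 and the mitotic transcription factor Foxm1 0.84 ± 0.19 (adjusted p = 0.12 each).

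The 12 tested members whose promoter window held an E2F motif had a median log2 change of -1.01 in mCG-PR SLAM against mCG-PR KLS cells of 6 weeks, and the 19 whose windows held none had -1.13. In mCG-PR against WT KLS cells of both ages the medians were 0.20 with the motif and 0.29 without. These are descriptions with no test.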
